A study of Mus musculus with 2 samples.

Results

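The 4 genes Ifitm1, Ifitm2, Ifitm3 and Ifitm6, of 7 Ifitm genes among the 32285 genes counted, were followed in the tumor-infiltrating GR1+ cells of a mouse breast carcinoma model, beside the classical interferon-stimulated genes of the same cells. The members were selected by symbol when earlier results of these cells were known, among them the lower Ifitm levels of neutrophils from responding tumors and the relation of the members to granule and interferon RNA. These values are therefore given as descriptions, and none of them was tested. GR1+ cells had been drawn with magnetic beads from 4T1 tumors of BALB/c mice. The labels give an age of 6 to 8 weeks, and the published account of the tumor models gives female mice of an older age. In each library 5 mice were pooled by the series description, and a smaller number by the published account. The parental line, 4T1P, gave the tumors labelled non-responding, and 4T1M, a clone of it obtained by mutagenesis, gave those labelled responding, the response in question being that to anti-PD1. Each condition was represented by 1 library, and the labels name no treatment, so that clone, response, pool and library cannot be told apart. Every interval below is a 95% interval that covers counting error only.

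IFITM proteins are small membrane proteins that hinder the fusion of viruses with cell and endosome membranes, and Ifitm3, which acts in endosomes, is the best known of them. Ifitm1, Ifitm2 and Ifitm3 can be induced by interferons, but they are also expressed without interferon in many cells, and Ifitm6 is known mainly from myeloid cells. Interferons bind receptors whose signal leads transcription factors to the interferon-stimulated response element (ISRE) and the gamma-activated site (GAS) near target genes such as Isg15, a ubiquitin-like protein, and Rsad2, an antiviral enzyme. Neutrophils make granule proteins such as cathelicidin (Camp), Ngp and lactoferrin (Ltf) while they mature in the marrow and then stop transcribing these genes.

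The members lie within 63.1 kb of mouse chromosome 7 in GRCm38: Ifitm2 at chr7:140954837-140955987 and Ifitm3 at chr7:141009586-141010770 on the minus strand, Ifitm1 at chr7:140967221-140969825 on the plus strand and Ifitm6 at chr7:141015699-141017924 on the minus strand, all protein-coding. Their promoters were read in the RefSeq windows from 250 bases before to 50 bases after the start (GRCm38.p6), on either strand, for the ISRE letters, GAAA and again GAAA with any 2 bases between them, and the GAS letters TTCNNNGAA. The windows of Ifitm2 and Ifitm3 held ISRE letters and those of Ifitm1 and Ifitm6 did not, and both stretches are shown because they hold the matches; capitals mark the ISRE letters, and both read 5′ to 3′ on the minus strand, the first at chr7:140955988-140956017 and the second at chr7:141010714-141010743.
Ifitm2: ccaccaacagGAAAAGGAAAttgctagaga
Ifitm3: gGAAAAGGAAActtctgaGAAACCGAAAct
In Ifitm2 the match spanned bases -46 to -37 from the start, and in Ifitm3 there were 2 matches, at bases 3 to 12 and 20 to 29. GAS letters were found in Ifitm3 at bases 14 to 22, where they overlap the second ISRE match, and in Ifitm6 at bases -10 to -2. ISRE letters occurred in 1131 of 32851 windows (3.44%), in 16 of 28 classical type I interferon genes with a window (57.1%) and in 0 of 16 genes of the granule list, and GAS letters in 8.30% of all windows. The RefSeq starts of Ifitm2 and Ifitm3 lie 26 bases inside the gene models given above, but those of Ifitm1 and Ifitm6 lie 855 and 1032 bases inside, so that other starts of these 2 genes were not searched. A match of letters is a description and not a binding site.

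Of 2947 barcodes with 21855657 unique molecular identifiers (UMIs, counted RNA molecules) in 4T1P and 5004 with 24303957 in 4T1M, 1726 and 3461 had 500 to 5000 genes and at most 10% mitochondrial UMIs. Neutrophils were the barcodes with at least 1.5% of UMIs from S100a8 and S100a9 and under 0.5% from C1qa, C1qb, C1qc and Apoe, 612 in 4T1P and 1686 in 4T1M, with a median of 3054.5 and 2957.5 UMIs. Macrophages were those under the S100 limit with at least 0.3% from the latter genes, Csf1r, Cd68 and Fn1, 798 and 976 cells with a median of 9727 and 9213.5 UMIs. Although the cells had been drawn by GR1, a neutrophil and monocyte antigen, neutrophils made up 35.5% and 48.7% of the retained barcodes and macrophages 46.2% and 28.2%. All 8 neutrophil markers were detected in the neutrophils, summing to 168259 and 137008 CPM (counts per 1000000 UMIs of the class), against 660 and 1202 CPM in the macrophages. The 11 macrophage and monocyte markers summed to 17412 and 18153 CPM in macrophages and to 635 and 732 CPM in neutrophils. Both sums include genes of the class rules, so the contrast between the classes is in part set by those rules. These genes are S100a8 and S100a9 among the neutrophil markers, and C1qa, C1qb, C1qc, Apoe, Csf1r and Cd68 among the others. Some cells lay near the S100 limit, 20 and 73 neutrophils and 1 and 11 macrophages being within 20% of it. So were 21 and 86 retained cells that met no class rule. This limit leaves out neutrophils low in S100a8 and S100a9, and the published account reports both genes lower in its interferon-stimulated neutrophils. Retained cells that met no class rule were 12.2% and 19.4% of the retained barcodes. They held Isg15 at 529 and 1053 CPM and Rsad2 at 445 and 833 CPM. How many of them were neutrophils, and their effect on the ratios, was not tested. The libraries shared 5 barcodes, 3 of them retained, and no doublet caller was run.

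Neutrophils of both libraries carried all 4 members, and 3 of these stood higher there than in macrophages past a fold of 0.35 on the log2 scale, beside 19.1% of 8954 genes in 4T1P and 20.2% of 9338 genes in 4T1M. Ifitm1 reached 4870 CPM (4784 to 4958) in 4T1P neutrophils and 4128 CPM (4079 to 4177) in 4T1M neutrophils, against 599 and 448 CPM in macrophages, a difference of 3.02 and 3.20 on the log2 scale. Ifitm2 was counted at 2429 and 1840 CPM in neutrophils and at 771 and 576 CPM in macrophages. Ifitm6 was the most restricted member, with 1535 and 968 CPM in neutrophils and 47.0 and 18.5 CPM in macrophages, which is 32.7-fold and 52.3-fold higher in the former. Ifitm3, by contrast, was nearly level between the classes, with 1756 and 1871 CPM in neutrophils and 1451 and 1640 CPM in macrophages, a log2 difference of 0.27 in 4T1P and 0.19 in 4T1M. The other 3 genes of the family, Ifitm5, Ifitm7 and Ifitm10, had at most 17 UMIs each in the neutrophils of a library.

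**Figure D1:**
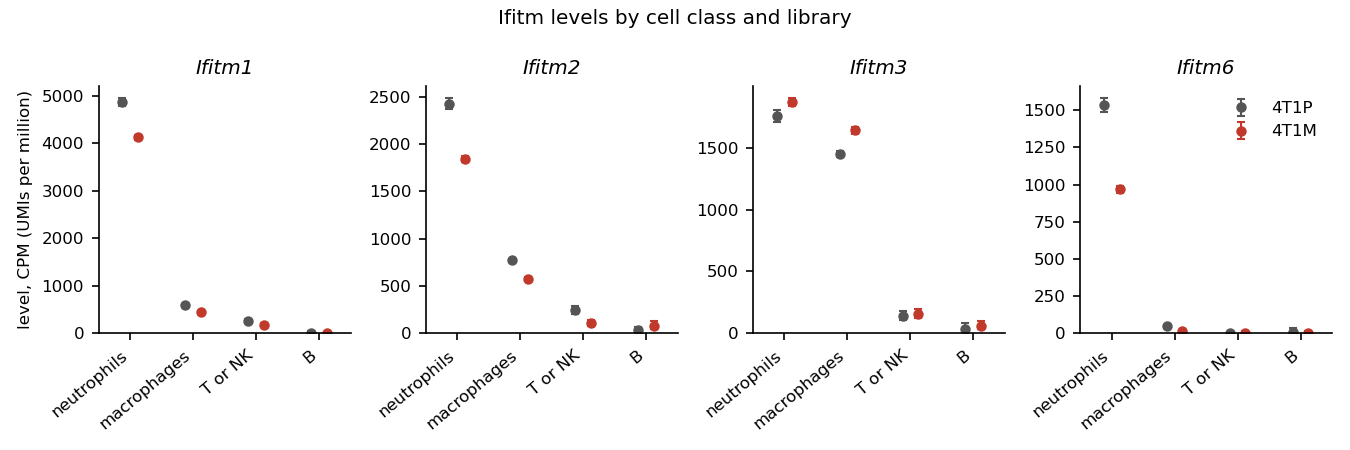
Level of each Ifitm member in CPM (y axis, from 0, own scale per panel) in neutrophils, macrophages, T or NK cells and B cells of 4T1P (grey) and 4T1M (red); points are sums over the cells of 1 pooled library and bars are exact Poisson 95% intervals. Ifitm1, Ifitm2 and Ifitm6 are highest in neutrophils, while Ifitm3 lies between 1451 and 1871 CPM in both myeloid classes.

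Lymphocytes were counted for comparison. T or NK cells held Ifitm1 at 250 and 181 CPM, Ifitm2 at 242 and 106 CPM and Ifitm3 at 142 and 157 CPM. After every cell had been thinned to 1000 UMIs, Ifitm1 was seen in 84.6% of 4T1P and 81.3% of 4T1M neutrophils, in 26.6% and 23.6% of macrophages, and in 0 of 31 and 0 of 30 B cells, which allows a share of up to 11.2% and 11.6% of cells with a UMI at that depth by the exact binomial interval; with all UMIs, 2 of 31 and 3 of 30 B cells had one. The B cells had a median of 4419 and 6673.5 UMIs before thinning. Ifitm2 was seen in 75.5% and 64.0% of neutrophils and 49.2% and 43.7% of macrophages, and Ifitm3 in 61.3% and 68.4% of neutrophils and 65.2% and 73.9% of macrophages. Ifitm6 was seen in 95 of 612 and 253 of 1682 neutrophils and in 33 of 772 and 16 of 939 macrophages, so that its CPM came from a minority of cells in both classes. Of the 74 T or NK cells of 4T1P, 10 held all 125 UMIs of Ifitm1, and Ifitm6 had 0 UMIs in these cells and 3 in those of 4T1M. A neutrophil commonly carried several members at once: 38.1% of 4T1P and 34.7% of 4T1M neutrophils had a UMI of 3 members among 1000 and 64 of 612 and 171 of 1682 of all 4, whereas 4.58% and 5.11% had none.

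Between the libraries, Ifitm1, Ifitm2 and Ifitm6 went the opposite way to most of the classical interferon genes. In neutrophils, Ifitm1 was lower in 4T1M by 0.24 on the log2 scale (-0.27 to -0.21), Ifitm2 by 0.40 (-0.45 to -0.36) and Ifitm6 by 0.67 (-0.72 to -0.61), while Ifitm3 was higher by 0.09 (0.04 to 0.14). The same fold was used between libraries, where its counts include counting noise of low genes. By this measure 0 of 4 members were higher, beside 19.9% of the 6465 genes with at least 50 UMIs, and 2 of 4 were lower, beside 10.6% of those genes. Of the classical type I interferon genes, 30 of 35 counted were higher past that fold and 0 lower, with a median of 0.89 against 0.04 over all genes; the list has 38 genes among the features. Named members of that list were Isg15, from 1025 to 1373 CPM (log2 0.42, 0.36 to 0.49), Rsad2, from 386 to 735 CPM (0.93, 0.83 to 1.03), Ifit1, an RNA-binding antiviral protein, from 74.7 to 179 CPM (1.26, 1.04 to 1.49), and Ifit3, from 12.8 to 31.6 CPM (1.31, 0.76 to 1.89). Ly6e, a membrane-anchored surface protein, went from 69.5 to 178 CPM (1.36, 1.13 to 1.60), and Irf7, the factor that amplifies interferon production, from 91.1 to 132 CPM (0.54, 0.32 to 0.75). Bst2 (tetherin) was at 45.5 and 54.0 CPM with an interval that spans 0 (-0.06 to 0.56). The highest ratio of the list was that of Slfn5 (1.49) and the lowest that of Oas1a (0.01, -0.48 to 0.52).

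Other interferon lists stood between. Of the interferon gamma genes, 13 of 25 counted were higher past the fold and 0 lower, with a median of 0.40; Gbp2, a guanylate-binding protein, was at 0.44 (0.31 to 0.57), Irf1 at 0.08 (-0.05 to 0.20), Gbp4 highest at 1.53 and Tap2 lowest at -0.24. Among the receptors and signalling genes, 5 of 13 were higher and 1 lower, with Jak2 highest (0.81) and Irf3 lowest (-0.90). The granule and immaturity genes lay on the other side, 11 of 17 being lower past the fold and 0 higher, with a median of -0.48; Padi4 was lowest (-1.22) and Mmp8 highest (0.06), and Camp went from 3575 to 1908 CPM. Ifitm6 and Ifitm2 thus lay among the ratios of the granule list rather than among those of the type I list, with 2.20% and 8.20% of all counted genes below them, and Ifitm3 lay below the lowest of the named type I genes other than Oas1a, with 56.8% of genes below it.

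**Figure D2:**
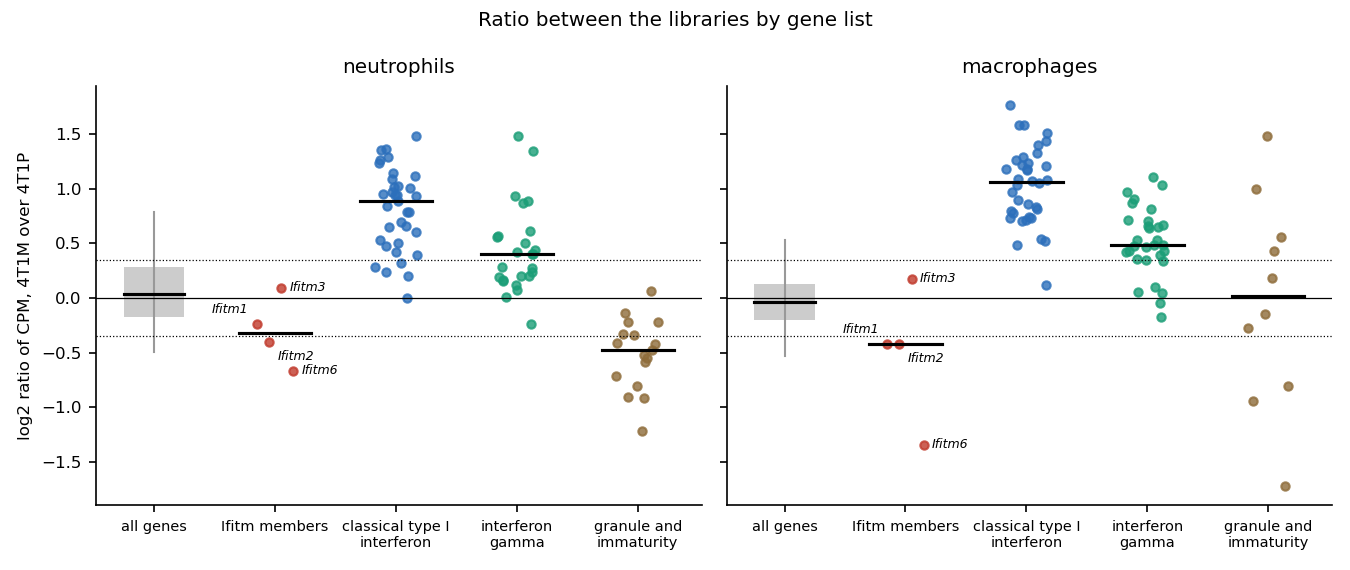
Log2 ratio of CPM, 4T1M over 4T1P (y axis), in neutrophils (left) and macrophages (right) for all genes with at least 50 UMIs (grey box from the 25th to the 75th percentile, line from the 5th to the 95th), the 4 Ifitm members and 3 gene lists; each point is a gene, black bars are medians and dotted lines mark 0.35 and -0.35. The members lie at or under 0.18 in both classes, while the type I list has its median at 0.89 and 1.06.

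The ratio of Ifitm6 rested on a small number of deep cells. The neutrophils above the 95th percentile of UMIs, 31 cells in 4T1P and 85 in 4T1M, held 2843 of the 3841 Ifitm6 UMIs of 4T1P and 3673 of the 6367 of 4T1M. Without them, Ifitm6 stood at 502 CPM in 4T1P and 508 CPM in 4T1M, a log2 ratio of 0.02, whereas Ifitm2 remained lower at 2435 and 1881 CPM (-0.37), Ifitm1 at 5640 and 4612 CPM (-0.29), and Ifitm3 was higher in 4T1M at 1596 and 1845 CPM (0.21). Of the deep cells, 20 of 31 in 4T1P and 36 of 85 in 4T1M had 3 or more Camp, Ngp and Ltf UMIs per 1000, and these made up 70.4% and 47.7% of the deep cells' UMIs. Whether some of the deep barcodes held more than 1 cell was not tested.

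Granule RNA ordered Ifitm6 more steeply than any other member. Neutrophils were divided by their Camp, Ngp and Ltf UMIs among 1000 into those with 0 (537 and 1511 cells), 1 to 2 (43 and 108), 3 to 9 (14 and 18) and 10 or more (18 and 45). Over these bins Ifitm6 went from 363 to 2388, 5231 and 6255 CPM in 4T1P and from 272 to 1521, 5268 and 5371 CPM in 4T1M, a 17.2-fold and 19.7-fold difference between the last bin and the first. It was seen in 53 of 537 and 164 of 1511 cells with no granule UMI, and in 17 of 18 and 42 of 45 cells with 10 or more. No single cell gave more than 12.3% of the Ifitm6 UMIs of the last bin in either library.

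Ifitm1 ran the opposite way, mainly at the end of the scale. It held at 5556, 5114 and 5519 CPM in 4T1P up to 9 granule UMIs and stood at 421 CPM (353 to 499) in the last bin, and in 4T1M it went from 4456, 4971 and 3681 CPM to 957 CPM (884 to 1035). The last bin was thus 13.2-fold lower than the first in 4T1P, where 1 cell gave 31.6% of its Ifitm1 UMIs, and 4.65-fold lower in 4T1M, and 4 of 18 and 20 of 45 cells of the last bin had an Ifitm1 UMI among 1000. Ifitm2 peaked in the third bin, at 4042 and 3345 CPM, and the last bin (2352 and 1960 CPM) lay close to the first (2312 and 1754 CPM). Ifitm3 was higher in each of the first 3 bins than in the one before, from 1511 to 2409 CPM in 4T1P and from 1767 to 2736 CPM in 4T1M, and in the last bin it was at 2716 and 2149 CPM. Past the fold, 2 of 4 members were higher and 1 of 4 lower in the last bin of 4T1P, beside 19.7% and 59.5% of 3394 genes, and 1 of 4 higher and 1 of 4 lower in 4T1M, beside 22.3% and 52.3% of 5594 genes. The type I list was mostly lower there, 23 of 26 genes in 4T1P (median -3.11) and 31 of 35 in 4T1M (-1.93), against a median over all genes of -0.65 and -0.41. These were the genes counted of 38 among the features, and a gene could be counted through the first bin alone. In 4T1P, 5 of the 26 had 0 UMIs in a bin, so their ratios rest on the added 0.5 UMIs. With 3 UMIs there instead, the median was -3.24. Since the third bin holds under 20 cells in each library, the last bins were also merged, an alternative chosen after the data were seen, and with 3 or more granule UMIs Ifitm1 was lower than in cells with none by 1.51 and 1.67 on the log2 scale rather than by 3.72 and 2.22.

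**Figure D3:**
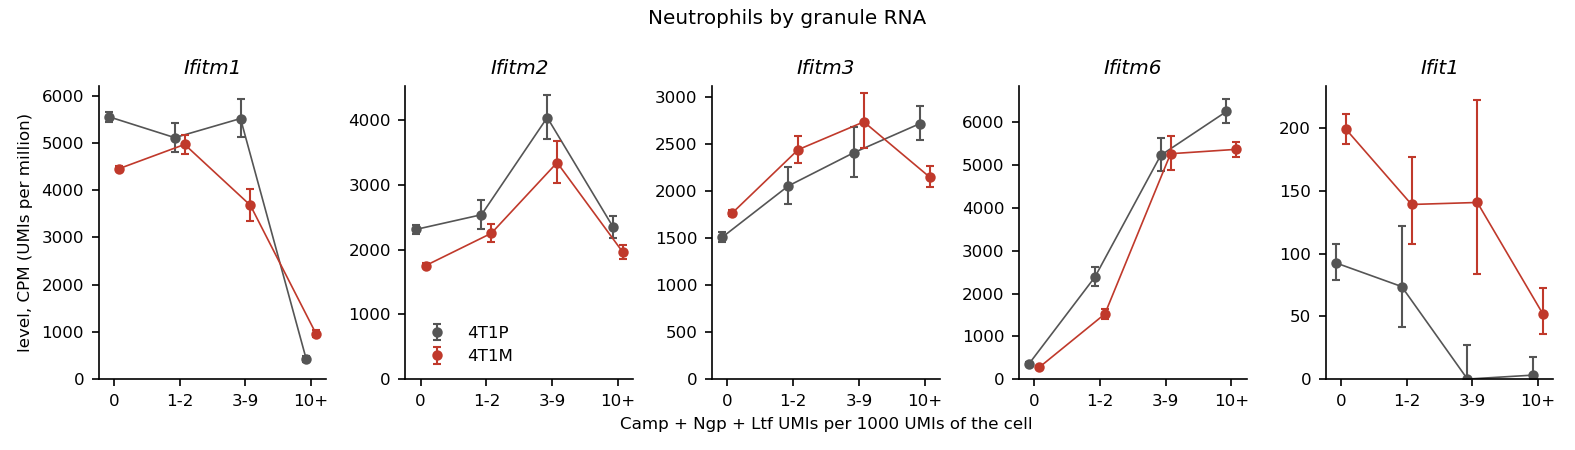
Level in CPM (y axis, from 0, own scale per panel) of the 4 members and Ifit1 in neutrophils of 4T1P (grey) and 4T1M (red) by Camp, Ngp and Ltf UMIs per 1000 UMIs of the cell (x axis); bars are exact Poisson 95% intervals. Ifitm6 goes from 363 and 272 CPM to 6255 and 5371 CPM, and Ifitm1 stands at 421 and 957 CPM in the last bin.

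Interferon RNA ordered the members differently from the classical genes. By Isg15 and Rsad2 UMIs among 1000, neutrophils fell into bins of 0 (320 and 696 cells), 1 to 2 (177 and 513), 3 to 5 (59 and 251) and 6 or more (56 and 222). Ifitm3 and Ifitm1 were higher in the last bin than in the first in both libraries. Ifitm3 was at 1684, 1676, 1666 and 2635 CPM in 4T1P, where only the last bin stood apart, and at 1568, 1805, 2106 and 2924 CPM in 4T1M. The last bin exceeded the first by 0.65 on the log2 scale (0.51 to 0.78) in 4T1P and by 0.90 (0.82 to 0.97) in 4T1M, with 49 of 56 and 195 of 222 cells of the last bin showing an Ifitm3 UMI. Ifitm1 went from 4530 to 5268, 5043 and 5879 CPM and from 3701 to 4461, 4118 and 4912 CPM, a log2 difference of 0.38 and 0.41. Ifitm2 was not higher in the last bin in either library, going from 2516 to 2112 CPM (-0.25, -0.40 to -0.11) and from 1802 to 1797 CPM (0.00, -0.09 to 0.08). Ifitm6 went from 2228 to 228 CPM and from 1463 to 237 CPM, which is 9.75-fold and 6.16-fold lower.

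By their list medians, the classical genes were higher in the last bin by more than Ifitm1 and Ifitm3 were. This did not hold for every gene. The lowest type I gene of 4T1M stood at 0.21 on the log2 scale, and the lowest interferon gamma genes at 0.39 in 4T1P and 0.26 in 4T1M. Ifit1 went from 4.82 to 558 CPM in 4T1P and from 41.8 to 906 CPM in 4T1M, and Ly6e from 45.4 to 234 CPM and from 115 to 357 CPM. Leaving out Isg15 and Rsad2, which define the bins, 19 of 19 type I genes in 4T1P and 30 of 31 in 4T1M were higher past the fold, with medians of 2.98 and 2.54, and 17 of 17 and 22 of 23 interferon gamma genes, with medians of 1.97 and 1.53. Of the members, 2 of 4 were higher and 1 of 4 lower in each library, beside 32.1% and 27.9% of 2818 genes in 4T1P and 18.1% and 34.5% of 4425 genes in 4T1M. Ifitm3 stood above 82.9% of the counted genes in 4T1P and 95.3% in 4T1M, and Ifit1 above 99.9% in both. The genes counted are not the same in both libraries, since a gene needed 50 UMIs over both bins. Without Isg15 and Rsad2 the type I list has 36 genes among the features, of which 19 and 31 were counted. A gene could be counted through the bin where it is high alone, so these counts and medians are in part set by the filter. In 4T1P, 1 counted type I gene had 0 UMIs in a bin, and with 3 UMIs there the median was again 2.98.

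**Figure D4:**
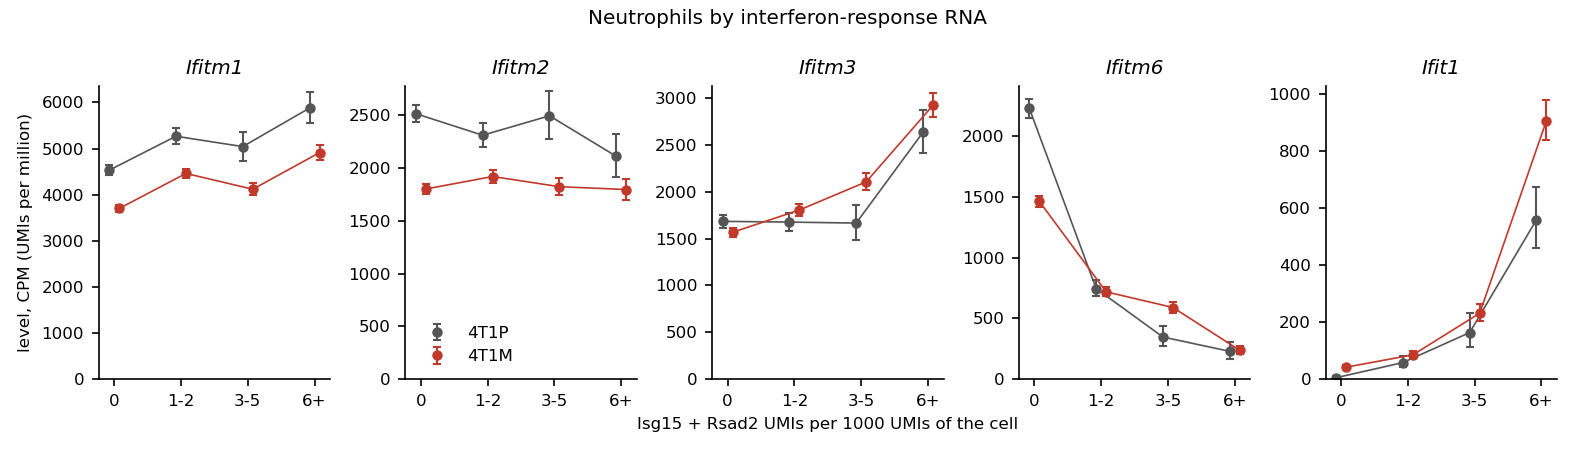
Level in CPM (y axis, from 0, own scale per panel) of the 4 members and Ifit1 in neutrophils of 4T1P (grey) and 4T1M (red) by Isg15 and Rsad2 UMIs per 1000 UMIs of the cell (x axis); bars are exact Poisson 95% intervals. Ifitm3 reaches 2635 and 2924 CPM in the last bin, Ifitm2 stays between 1797 and 2516 CPM, Ifitm6 ends at 228 and 237 CPM and Ifit1 at 558 and 906 CPM.

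Cells rich in granule RNA held less RNA of most type I genes counted, so both scales were considered at once. Ifit1 was at 3.17 and 51.7 CPM in the last granule bin against 92.5 and 199 CPM in the first. The log2 interval in 4T1P was wide (-10.2 to -2.37). Ly6e was nearly equal in 4T1P, at 69.6 CPM in the last bin and 73.0 CPM in the first (-0.07, -0.79 to 0.59). In 4T1M it was lower, at 94.2 against 191 CPM. Among neutrophils with no granule UMI, Ifitm3 still went from 1268 to 2618 CPM in 4T1P and from 1324 to 2876 CPM in 4T1M between 0 and 6 or more interferon UMIs, a log2 difference of 1.05 (0.89 to 1.20) and 1.12 (1.03 to 1.20), which is wider than in all neutrophils. The difference of Ifitm1 was 0.08 (-0.02 to 0.17) and 0.23 (0.17 to 0.29) in these cells, that of Ifitm6 -1.06 and -0.61, and Ifitm2 stood at -0.17 in 4T1P and 0.17 in 4T1M. Across single neutrophils, Spearman's rho of Ifitm3 with Isg15 and Rsad2 was 0.17 over 612 cells and 0.26 over 1682 cells, that of Ifitm6 with the granule genes 0.48 and 0.39, and that of Ifitm1 with Ifitm2 0.36 and 0.40. All counts of a cell share its 1000 UMIs, so these weak relations are descriptions only.

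Within bins, only the library ratio of Ifitm2 kept its sign throughout. Ifitm2 was lower in 4T1M in all 4 granule bins, by 0.40, 0.17, 0.27 and 0.26 on the log2 scale, and in all 4 interferon bins, by 0.48, 0.27, 0.45 and 0.23, with no interval reaching 0. With both scales crossed, Ifitm2 was again lower in each bin, but some intervals reached 0. With 1 to 2 granule UMIs and at least 1 interferon UMI it stood at -0.03 (-0.29 to 0.25). Over the interferon bins Ifitm3 was at -0.10 (-0.17 to -0.03), 0.11, 0.34 and 0.15, and Ifitm6 at -0.61, -0.05, 0.77 (0.40 to 1.15) and 0.05, so that the ratios of both changed sign. Ifitm1 was lower in all 4 interferon bins, by 0.24 to 0.29, and in the granule bins of 0 (-0.32) and 3 to 9 (-0.58), it stood at -0.04 (-0.15 to 0.07) with 1 to 2, but it was higher in 4T1M in the last granule bin (1.19, 0.91 to 1.47). Ifitm3 was higher in 4T1M with 0 (0.23) and 1 to 2 granule UMIs (0.25) and lower with 10 or more (-0.34, -0.46 to -0.21). Ifitm6 was lower by 0.42 in cells with no granule UMI and by 0.65 with 1 to 2, and it stood at 0.01 (-0.14 to 0.16) with 3 to 9 and at -0.22 with 10 or more. With the 4T1M granule bins weighted to their share of UMIs in 4T1P, the ratio of Ifitm6 went from -0.66 to -0.25 (counting SE 0.03), while those of Ifitm1 (-0.28), Ifitm2 (-0.35) and Ifitm3 (0.13) stayed near their values in all neutrophils. With the interferon bins weighted in the same way, Ifitm3 went from 0.09 to 0.02 (SE 0.03) and Ifitm6 to -0.48. Weighting by both scales crossed put Ifitm3 at 0.07 (SE 0.03) and Ifitm6 at -0.25. The interferon bins were not matched between the libraries, Ifit1 standing at 4.82 CPM in 4T1P and 41.8 CPM in 4T1M in the bin of 0.

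**Figure D5:**
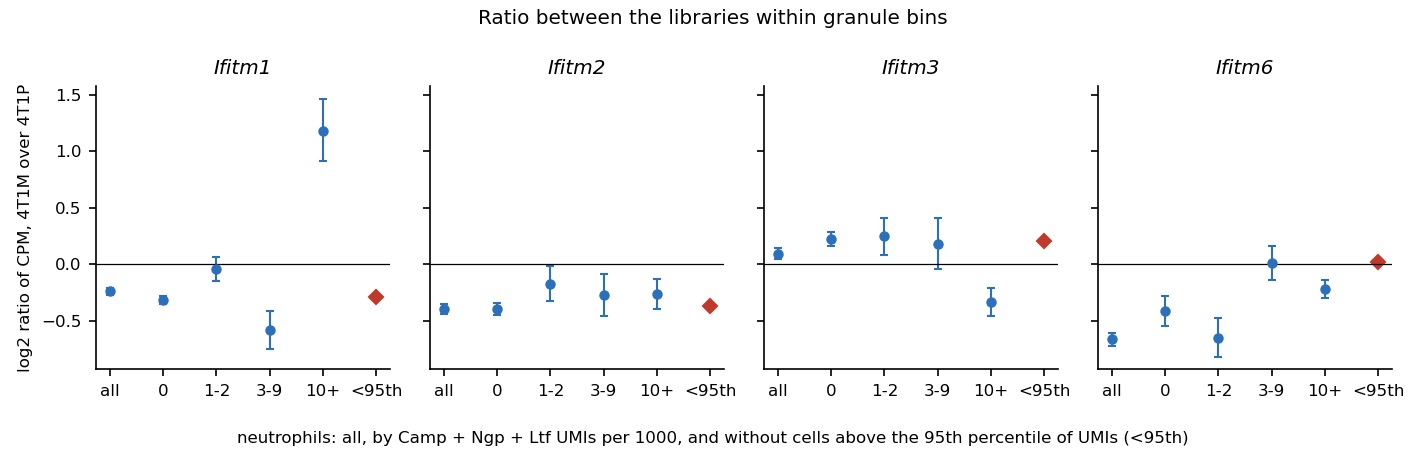
Log2 ratio of CPM, 4T1M over 4T1P (y axis), of each member in all neutrophils, within bins of Camp, Ngp and Ltf UMIs per 1000 (blue, with 95% counting intervals) and in neutrophils at or below the 95th percentile of UMIs (red diamond, no interval drawn). Ifitm2 lies below 0 in every group shown, and Ifitm6 is at 0.02 once the deepest cells are left out.

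In macrophages, too, Ifitm1, Ifitm2 and Ifitm6 went the opposite way to most of the classical interferon genes. Ifitm1 was lower in 4T1M by 0.42 on the log2 scale (-0.48 to -0.36), Ifitm2 by 0.42 (-0.47 to -0.37) and Ifitm6 by 1.34 (-1.61 to -1.08), and Ifitm3 was higher by 0.18 (0.14 to 0.21). Past the fold, 0 of 4 members were higher beside 9.46% of 9874 genes, and 3 of 4 were lower beside 12% of them. Of the type I genes, 35 of 36 were higher and 0 lower (median 1.06), with Usp18, which removes Isg15 from its targets, highest at 1.77 and Ifit2 lowest at 0.12, and of the interferon gamma genes 23 of 30 were higher and 0 lower (median 0.48), with Gbp6 highest at 1.11 and Irf1 lowest at -0.18. The named genes Isg15 (342 to 774 CPM), Rsad2 (294 to 796 CPM), Irf7 (61.9 to 186 CPM), Ly6e (182 to 518 CPM), Bst2 (141 to 275 CPM) and Gbp2 (54.1 to 106 CPM) were each higher in 4T1M. Receptors and signalling genes were higher in 4 of 14, with Stat2 highest (0.98) and Ifngr2 lowest (-0.24). Granule genes, of which 10 were counted, split into 4 higher and 3 lower, from Mmp9 (-1.72) to Mmp8 (1.48).

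Macrophage counts held RNA of the 8 neutrophil markers, summing to 660 CPM in 4T1P and 1202 CPM in 4T1M, with S100a8 at 237 and 465 CPM and Mmp9 at 55.8 and 16.9 CPM. Whether this RNA came from neutrophils was not tested, and neither was its part in the ratios of the members. For each 1000 S100a8 UMIs, macrophages held 2531 and 964 Ifitm1 UMIs against 73.8 and 73.7 in neutrophils, and 199 and 39.8 Ifitm6 UMIs against 23.3 and 17.3. Among macrophages with no S100 UMI of 1000, 569 and 523 cells, Ifitm1 was at 608 and 417 CPM (-0.54), Ifitm2 at 771 and 571 CPM (-0.43), Ifitm3 at 1440 and 1645 CPM (0.19) and Ifitm6 at 46.9 and 15.4 CPM (-1.60). In the 205 and 106 macrophages with no S100 UMI at all, shallow cells with a median of 2163 and 1552 UMIs, Ifitm1 was higher in 4T1M, at 550 and 856 CPM (0.64), Ifitm2 was at 859 and 775 CPM (-0.15) and Ifitm6 had 26 and 6 UMIs; both subsets were chosen after the data were seen.

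Across macrophages, RNA of the complement component C1q, which macrophages secrete, went with differences that varied by member and library. From 0 to 5 or more C1qa, C1qb and C1qc UMIs per 1000, Ifitm3 went from 1598 to 1499 CPM in 4T1P and from 1699 to 1684 CPM in 4T1M, and Ifitm2 from 710 to 861 CPM (log2 0.28) and from 496 to 633 CPM (0.35, 0.25 to 0.46). Ifitm1 went from 874 to 510 CPM in 4T1P and from 476 to 444 CPM in 4T1M, so that its library ratio was -0.88 in cells without C1q RNA and -0.20 in those with 5 or more. Ifitm3 was higher in 4T1M in all 3 C1q bins, by 0.09, 0.19 and 0.17, and Ifitm2 and Ifitm6 were lower in all 3. The 28 macrophages of 4T1M with a Ly6c2 UMI, a marker of inflammatory monocytes, had Ifitm1 at 679, Ifitm2 at 761 and Ifitm3 at 2236 CPM, against 440, 568 and 1616 CPM in the 911 without, and 0 of 772 macrophages of 4T1P had such a UMI among 1000. On the interferon scale, macrophages gave smaller differences of Ifitm3 than neutrophils did, and this contrast of the classes was not tested. Between 0 and 6 or more Isg15 and Rsad2 UMIs per 1000, Ifitm3 went from 1501 to 1435 CPM in 4T1P (-0.07, -0.30 to 0.16, with 9 cells in the last bin) and from 1633 to 1917 CPM in 4T1M (0.23, 0.13 to 0.33, 44 cells). Ifitm1 was lower in the last bin by 0.75 and 0.73, while Ifit1 was 14.8-fold and 12.4-fold higher. Unlike in the C1q bins, Ifitm2 and Ifitm6 were not lower in 4T1M in every interferon bin. The library ratio of Ifitm2 was -0.58, -0.08 (-0.19 to 0.02), -0.21 and 0.51 (0.06 to 0.99) from the first bin to the last. That of Ifitm6 was -1.44, 0.20 (-0.48 to 0.89) and -0.42 (-1.98 to 1.40) in the first 3, and its last bin in 4T1P was at 0 CPM.

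Genes whose profile was most like that of a member were sought over 16 groups of neutrophils, made by the 4 granule bins, the absence or presence of interferon UMIs and the 2 libraries, among 1916 genes with at least 500 UMIs. The smallest group held 2 cells. Ifitm6 ran most like S100a8 (Pearson's r = 0.98), the neutrophil surface antigen Ly6g (0.98) and Pglyrp1 (0.98), a peptidoglycan-binding granule protein. S100a8 is a gene of the class rule. The groups were made by granule RNA, along which Ifitm6 rose, so its high r with genes that follow this RNA is in part set by the groups. Closest to Ifitm1 were Wfdc17 (0.94), Grina (0.92) and Gpcpd1 (0.92), and closest to Ifitm2 were S100a6 (0.89), S100a11 (0.88) and Taldo1 (0.85), an enzyme of the pentose phosphate pathway. Ifitm3 had the loosest companions, Coro1a (0.79), an actin-binding protein, Cd52 (0.77) and Myo1f (0.76). Between members, r was -0.49 for Ifitm1 with Ifitm6, 0.68 for Ifitm3 with Ifitm6 and 0.31 for Ifitm1 with Ifitm2; the groups share libraries and bin limits, so no p is given.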

How the data were processed

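Sequencing reads of 1 droplet library per condition had been aligned by the authors to mm10 and turned into UMI counts per gene and barcode with Cell Ranger (version 4.0.0 in the matrix headers and the submitters' processing notes, a later one in the methods), and these raw counts are what was deposited. Reads that fit several genes equally well are not counted by that tool, so similar stretches of the Ifitm paralogs can lower their counts, and overlapping genes are uncertain likewise. The members and gene lists were chosen with earlier results of these data known.

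UMI sums of each class in each library were expressed as CPM, with exact Poisson intervals. Log2 ratios carry exact conditional binomial intervals, shares Clopper-Pearson intervals. For lists and all-gene shares, 0.5 UMIs were added to each sum, and genes with at least 50 UMIs over both sides were counted; a fold of 0.35 on the log2 scale counted as higher or lower. Bins used cells with at least 1000 UMIs, thinned to 1000 without replacement, and CPM from all UMIs of those cells. Likeness used log2(CPM + 10). Mx1, Mx2 and Cxcl11 were not used, for want of a feature of that symbol. With 1 library per condition no test, p-value or count model across samples was possible. Genes named were the 4 members, their relatives, 10 interferon genes (1 of which is not reported here), the highest and lowest gene of each list (in the comparison of the libraries) and the 3 genes most like each member; Camp and S100a8 were added as references after their values were seen. T, NK and B cells had at least 3 UMIs of their markers. Alternatives used edgeR 4.0.16 (TMM factors) and DESeq2 1.42.0 (size factors), and all else was run in Python 3.11.15 with scipy 1.17.1. The computation of the ratio and its interval was checked on counts drawn from a Poisson model. The interval assumes that same model, which holds no spread between cells, so the check cannot show how the intervals fare with such spread. Gene models were those of GENCODE M21.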

Additional observations from a re-analysis of the deposited data

Results flagged for a closer look

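These values are from data outside the comparisons above. Neutrophil RNA outside the retained cells carried the members too. Among the barcodes left out by the limits on genes and mitochondrial UMIs, 243 in 4T1P and 414 in 4T1M met the neutrophil rule, with a median of 2020 and 1194 UMIs and of 13.7% and 7.75% mitochondrial UMIs. Ifitm1 stood there at 4768 CPM in 4T1P and 3908 CPM in 4T1M, a log2 ratio of -0.29 (-0.35 to -0.22). Ifitm2 was at 1814 and 1330 CPM (-0.45, -0.55 to -0.34), Ifitm3 at 1203 and 1638 CPM (0.45, 0.33 to 0.56) and Ifitm6 at 595 and 318 CPM (-0.91, -1.11 to -0.70). The members kept the directions of all retained neutrophils, and these barcodes come from the same libraries, with no control library to compare them with. They were not divided by depth, whereas Ifitm6 in retained neutrophils stood at 0.02 without cells above the 95th percentile of UMIs.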

How the results depend on the processing

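Each of the 4 members was counted separately under each alternative. The sign of the ratio, 4T1M over 4T1P, was kept in 39 of 40 such values in neutrophils and 47 of 48 in macrophages. For the last bin against the first, each library was also counted separately. That sign was kept in 23 of 24 values (granule RNA) and 15 of 16 (interferon RNA). The exceptions in the ratios were Ifitm6 in neutrophils at 0.018 without cells above the 95th percentile of UMIs, and Ifitm1 in macrophages at 0.64 in cells with no S100a8 or S100a9 UMI; the cause was not tested. All values here are on the log2 scale unless given in percent. Those listed lay outside the counting interval of the main value or, for counts of genes, moved by over 1.5 times. The counting error of the alternative was left out of this rule, and the intervals of some listed values overlap that of the main value. For the type I median, the margin was the counting interval of the summed UMIs of the list. The counting error of the median itself was not computed. With TMM factors, Ifitm1 in neutrophils was at -0.28 and the type I median at 0.85, and at 1.09 in macrophages; genes past the fold were 17.2% higher and 13.3% lower in neutrophils and 10.5% and 10.3% in macrophages. With DESeq2 size factors, Ifitm1 was at -0.28, Ifitm2 at -0.45 and the type I median at 0.84 in neutrophils, and Ifitm3 at 0.21 and the median at 1.10 in macrophages; genes past the fold were 16.9% and 13.6%, and 10.6% and 10.1%. These scalings shifted all genes by -0.04 and -0.05 in neutrophils and by 0.03 in macrophages. Such shifts are smaller than the ratio of any member, so these alternatives could not change a sign. The same holds for a total without the 10 most abundant genes, which also shifted all genes alike. With a filter of 10 UMIs, the shares were 25.2% and 17.9% in neutrophils and 13.9% and 16.05% in macrophages.

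With a mitochondrial limit of 5%, Ifitm1, Ifitm2, Ifitm3 and Ifitm6 in neutrophils were at -0.29, -0.48, 0.016 and -0.84, and in macrophages Ifitm1 was at -0.74, Ifitm3 at 0.060 and the type I median at 0.86. With at least 3% S100a8 and S100a9, Ifitm1 was at -0.21 and the type I median at 0.84. With C1qa, C1qb, C1qc and Apoe at 0, the 4 members were at -0.30, -0.25, 0.028 and -0.59 and the type I median at 0.73. As a mean over cells, Ifitm1, Ifitm3 and Ifitm6 in neutrophils were at -0.28, 0.19 and -0.35 and the type I median at 0.78, and in macrophages Ifitm1 was at -0.31 and the median at 0.94. With cells thinned to 1000 UMIs, the same members in neutrophils were at -0.31, 0.23 and -0.46 and the median at 0.72, and in macrophages Ifitm1 was at -0.27, Ifitm2 at -0.28 and the median at 0.84, with 22 of the 25 type I genes still counted past the fold, against 35 of 36. Without cells above the 95th percentile of UMIs, Ifitm1 and Ifitm3 in neutrophils were at -0.29 and 0.21 and the type I median at 0.76, and in macrophages Ifitm1 was at -0.28 and the median at 1.02. With no upper limit on genes, Ifitm1 and Ifitm2 in macrophages were at -0.34 and -0.36, and with a macrophage limit of 0.6% the type I median was at 1.14.

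In macrophages with no S100 UMI, an alternative chosen after the data were seen, Ifitm2, Ifitm3 and Ifitm6 were at -0.15, 0.53 and -0.42, and with none among 1000 Ifitm1 was at -0.54. With a last granule bin of 3 or more UMIs, also chosen afterwards, Ifitm1 was at -1.51 in 4T1P and -1.67 in 4T1M against the first bin, and Ifitm2 at 0.31 and 0.32. With bins made from 500 UMIs per cell, the last granule bin stood at 3.91 for Ifitm6 in 4T1P, and at -2.34, 0.0034, 0.17 and 4.02 for Ifitm1, Ifitm2, Ifitm3 and Ifitm6 in 4T1M. The last interferon bin then stood at 0.60, -0.023, 0.93 and -4.77 for the 4 members in 4T1P, and at 0.30, 1.03 and -2.04 for Ifitm1, Ifitm3 and Ifitm6 in 4T1M. In neutrophils with no granule UMI, it stood at 0.077, 1.05 and -1.06 for these 3 in 4T1P, and at 0.23, 0.17, 1.12 and -0.61 for the 4 members in 4T1M. No paired analysis was possible because each condition had 1 library, and for the same reason no replicate could be left out and no spread between animals is known.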

Other observations

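The retained cells that met no class rule, 211 in 4T1P and 673 in 4T1M, held neutrophil markers summing to 7908 and 13314 CPM, macrophage markers summing to 3797 and 3541 CPM and erythroid markers summing to 3294 and 1504 CPM. Their Ifitm1 was at 973 and 799 CPM and their Ifitm2 at 769 and 584 CPM, between the neutrophils and the macrophages for Ifitm1 and near the macrophages for Ifitm2. Ifitm3 was at 1285 and 1158 CPM, below both classes in each library. Ifitm6 was at 30.5 CPM (20.7 to 43.3) in 4T1P and 105 CPM (92.8 to 118) in 4T1M, the one class besides T or NK cells in which it was counted higher in 4T1M.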
